A study of Homo sapiens with 72 samples.

Results

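The ribosomal protein (RP) genes encode the proteins of the cytoplasmic ribosome. The RP genes described here are the 79 protein-coding genes of the GENCODE hg38 annotation whose symbol is RPL or RPS followed by a digit, or RPLP0, RPLP1, RPLP2 or RPSA, out of 20033 protein-coding genes in all. Another 23 symbols that begin the same way, such as those of the RPS6K kinases and of paralogs with an L suffix, were left out. The 79 genes comprise 43 of the large subunit, 33 of the small subunit and the 3 stalk genes RPLP0, RPLP1 and RPLP2. They lie on 22 chromosomes, with 12 on chromosome 19, 4 on X and 2 on Y. Of the 79, 28 hold a small nucleolar RNA gene between their ends on the same strand, small Cajal body RNA genes being counted with these. Of the 79, 13 share their promoter with a divergent protein-coding gene that starts within 1 kb.

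Ribosomal proteins are made in equal amounts and in every growing cell, and their genes are among the most strongly transcribed of the genome. Most of their messages begin at a cytosine that is followed by a run of pyrimidines, the terminal oligopyrimidine (TOP) motif, through which mTOR signalling controls their translation. H3K4me3 marks the starts of active genes, H3K4me2 marks the same starts and their flanks as well as enhancers, and H3K27me3 is the mark of Polycomb repression. Bryostatin is a macrocyclic lactone that binds the diacylglycerol site of protein kinase C.

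Histone marks were profiled by Cut&Tag, in which a transposase tethered to an antibody cuts the DNA around the mark. Raji, a Burkitt lymphoma line, and NALM6 and REH, both precursor B-cell leukemia lines, were grown untreated or with bryostatin (1 nM, overnight in the labels and for a full day in the study's text) and 3 marks were read in each: H3K4me3, H3K4me2 and H3K27me3. There were 3 replicates of every line, mark and treatment, which gave 18 groups and 54 libraries, 18 per mark. Each line is an established culture, and nothing in the labels says that the replicates were separate cultures, so the p-values below measure the spread between these libraries only. The IgG libraries of the study were not analysed here.

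The lines carried the H3K4me3 peaks of B cells. In the untreated libraries PAX5, EBF1 and CD79B had a peak in 3 of 3 libraries of every line. MS4A1 and CR2, genes of mature B cells, had a peak in 3 of 3 Raji libraries and in 0 of 3 of NALM6 and REH. BCL6 and CIITA, of the same list, had peaks in all 3 lines. Of the 5 precursor B-cell genes, DNTT and IGLL1 had a peak in 3 of 3 libraries of NALM6 and REH and in 0 of 3 of Raji, and RAG2 in 2, 3 and 0 of NALM6, REH and Raji. VPREB1 had one in NALM6 only, and RAG1 in 3 of 3 libraries of every line. The 4 T-cell and 3 erythroid markers had none. Of the myeloid and liver markers, CEBPE and CSF1R had a peak in 1 REH library and APOA1 in 1 NALM6 library. The libraries held 5.12 M to 47.9 M mapped reads where these could be computed. The 6 libraries of NALM6 replicate 1 carry another signal scale with shorter peaks, so ranks and positions are given over the 16 other libraries of each mark. One library stood against its label: Raji H3K27me3 untreated replicate 2 had 34.8% of its peaks over H3K4me3 peaks of Raji, against 0.768% to 8.98% in the other H3K27me3 libraries. Results for H3K27me3 are therefore given with and without it.

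The sequences around the starts show what these promoters share that the choice of genes did not use. RefSeq (GRCh38.p14) gave promoter sequence for 64 of the 79 genes, of 15345 protein-coding genes in all. A C at the annotated start followed by at least 4 C or T was found in 43 of 64 RP genes (67.2%) and in 4.65% of all promoters. Within 10 bases of the start the same run was found in 56 of 64 (87.5%) and in 34.0% of all promoters. Below are 80 bases around the start of 9 RP genes, 60 before it and 20 from it, 5′ to 3′ on the gene's strand. Capitals mark the run of C and T that reaches or ends just before the start. RPLP0, RPLP2, RPS21 and RPL22 are shown as genes at which H3K4me3 and H3K4me2 differed or lines differed, RPL14 for its difference between lines, RPL38 for its H3K27me3, RPL34 and RPS4X as the weakest promoters for H3K4me3 outside the Y chromosome, and RPS28 as a strong promoter without the run at its annotated start, though it has one within 10 bases.
RPLP0 (chr12:120201092-120201171, minus strand): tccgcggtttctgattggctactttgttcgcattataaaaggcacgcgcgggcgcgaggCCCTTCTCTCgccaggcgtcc
RPLP2 (chr11:809907-809986, plus strand): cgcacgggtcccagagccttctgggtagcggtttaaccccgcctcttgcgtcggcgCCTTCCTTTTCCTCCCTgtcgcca
RPS21 (chr20:62387043-62387122, plus strand): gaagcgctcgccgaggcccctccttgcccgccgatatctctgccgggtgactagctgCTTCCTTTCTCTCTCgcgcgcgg
RPL22 (chr1:6199576-6199655, minus strand): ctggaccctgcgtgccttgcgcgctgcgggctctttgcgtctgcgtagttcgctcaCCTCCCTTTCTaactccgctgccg
RPL14 (chr3:40457279-40457358, plus strand): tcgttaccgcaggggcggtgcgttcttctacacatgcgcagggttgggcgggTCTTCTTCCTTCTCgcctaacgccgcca
RPL38 (chr17:74203618-74203697, plus strand): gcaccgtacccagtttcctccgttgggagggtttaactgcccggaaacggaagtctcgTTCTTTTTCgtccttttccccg
RPL34 (chr4:108620516-108620595, plus strand): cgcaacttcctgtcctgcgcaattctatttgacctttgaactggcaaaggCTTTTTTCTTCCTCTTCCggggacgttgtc
RPS4X (chrX:72277229-72277308, minus strand): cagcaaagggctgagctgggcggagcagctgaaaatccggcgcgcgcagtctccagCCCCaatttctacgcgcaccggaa
RPS28 (chr19:8321436-8321515, plus strand): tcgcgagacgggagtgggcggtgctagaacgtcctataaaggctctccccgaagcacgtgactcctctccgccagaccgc

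Other short sequences were searched on both strands of the 250 bases before each start, except TATA, which was read on the gene's strand. The 50 bases from the start on were not searched, so sites there are not counted. TATA stood between 40 and 11 bases before the start in 12 of 64 RP promoters (18.8%) and in 7.90% of all promoters. CCGGAAG, a core that ETS factors bind, was found in 18 of 64 (28.1%) against 12.0%. GGGCGG, the core of the Sp1 motif, was found in 53.1% against 56.7%, and CACGTG, the E-box that MYC binds, in 4.69% against 7.85%. AAGATGGC, the core of the YY1 motif, was found before the start in 1 of 64, against 1.38% of all promoters. The RP promoters were less rich in G and C than all promoters (median 58.7% against 63.0%) and less depleted of CpG (observed over expected 0.911 against 0.767). These are matches of letters in a window and were not tested as binding sites.

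A gene was counted as marked when a peak lay within 1 kb of any of its annotated starts. An H3K4me3 peak was present at 90.8% of the RP genes on average over the 18 libraries, against 48.3% of all protein-coding genes. The share was above that of all genes in 18 of 18 libraries and ranged from 54.4% to 98.7%, with a median of 97.5%. In untreated Raji 78, 78 and 78 RP genes had a peak in the 3 libraries, and in bryostatin-treated Raji 78, 78 and 76. In untreated REH the numbers were 77, 66 and 71 and in treated REH 66, 77 and 72. NALM6 had 55, 77 and 77 untreated and 67, 77 and 43 treated. The 55 and 67 of NALM6 came from replicate 1 with its shorter peaks, and the 43 from a library with 5.41 M reads and 4389 peaks. Of the 79 genes, 39 had H3K4me3 in all 18 libraries and 68 in at least 15.

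H3K4me2 was present at fewer RP genes and varied more. The mean over 18 libraries was 73.5% against 50.5% of all genes, with a range from 15.2% to 98.7% and a median of 82.3%. The share lay above that of all genes in 15 of 18 libraries. In Raji the counts were 70, 29 and 68 untreated and 77, 78 and 59 treated, in REH 75, 66 and 61 untreated and 74, 64 and 53 treated, and in NALM6 12, 46 and 52 untreated and 19, 72 and 70 treated. The Raji library with 29 held 6.70 M reads, the fewest of the H3K4me2 libraries with a known depth, and had a peak at 44.5% of all genes. Only 7 RP genes carried H3K4me2 in all 18 libraries (RPL7, RPL8, RPL15, RPL28, RPL35, RPLP2 and RPS21), and 12 had it in fewer than 9.

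The excess over other genes depended on how weak a peak was counted for H3K4me2, but not for H3K4me3. When only peaks above the median maximum of their library were kept, H3K4me3 was present at 58.1% of RP genes and 28.3% of all genes. The same cut left H3K4me2 at 28.2% of RP genes and 31.3% of all genes, so the order of the shares turned. When every library of a mark was held to an equal number of peaks, the shares were 52.8% against 26.2% for H3K4me3 and 26.9% against 31.8% for H3K4me2.

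**Figure D1:**
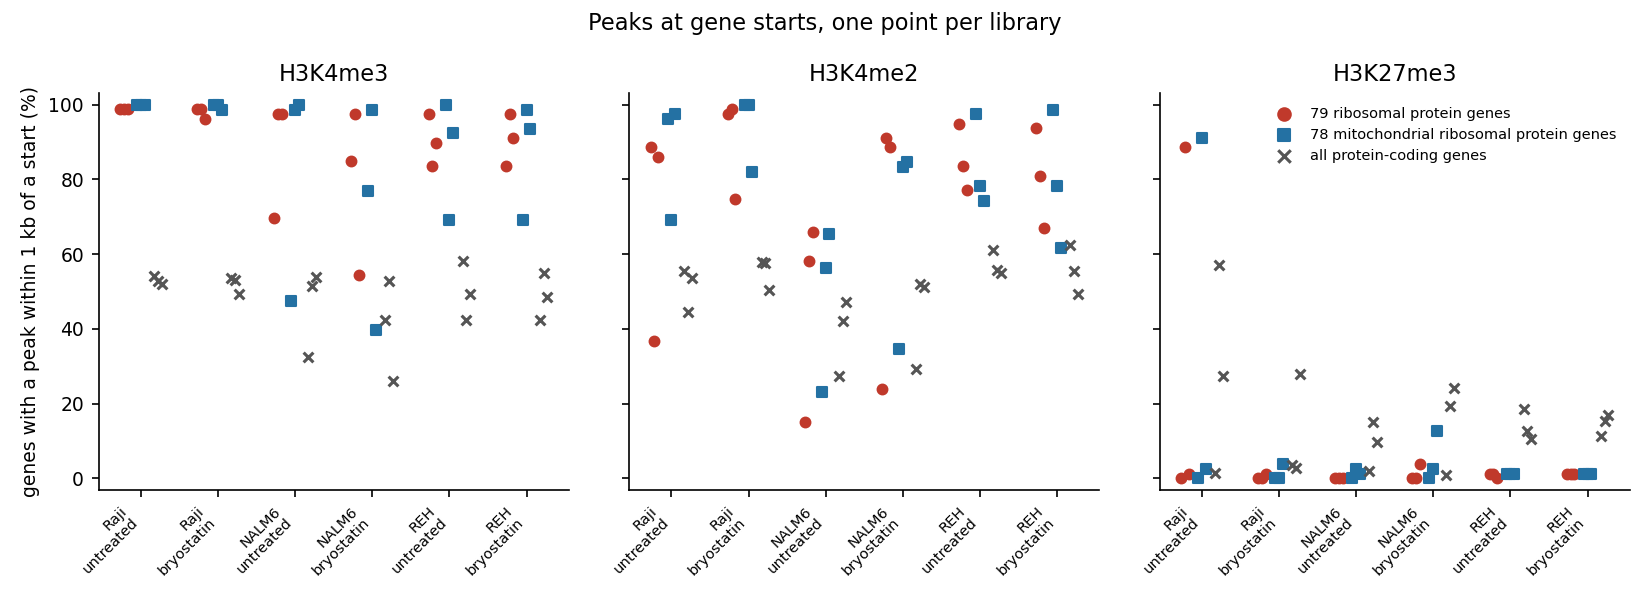
Percent of genes with a peak within 1 kb of a start (vertical axis) in each library of 6 line and treatment groups, for H3K4me3, H3K4me2 and H3K27me3. Circles are the 79 RP genes, squares the 78 mitochondrial ribosomal protein genes and crosses all 20033 protein-coding genes; the circle at 88.6% for H3K27me3 is Raji untreated replicate 2.

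Some RP genes lacked both H3K4 marks often. RPS4Y2 had no H3K4 peak in any library and RPS4Y1, the other Y-linked gene, had H3K4me3 in 5 of 18. The H3K4me3 and H3K4me2 libraries of REH had no peak anywhere on Y, so in REH the lack is not particular to these genes. RPS4X, their X-linked paralog in the small subunit, had H3K4me3 in 11 libraries and H3K4me2 in 1. RPL29, RPL34 and RPS20 also had H3K4me3 in 11, RPL35A in 12, and RPL24, RPL36A, RPL37 and RPS27 in 13. Of these, RPL36A had H3K4me2 in 13 libraries and RPL37 in 14, and the other autosomal genes in 6 to 8. RPL17 and RPL38 were low for H3K4me2 alone, with H3K4me2 in 4 and 5 libraries and H3K4me3 in 17 and 15. RPL5 had H3K4me2 in 7 libraries and H3K4me3 in all 18. The X-linked genes are limited in NALM6 by replicate 1, in which 4 of the 6 libraries had no peak on X.

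By role in the ribosome, the 3 stalk genes had H3K4me3 in all 6 libraries of every line. RPL5 and RPL11, which carry the 5S RNA into the large subunit, had it in all 6 libraries of Raji and of REH. Of the 9 genes for proteins around the exit tunnel, through which the new chain leaves, 9 had H3K4me3 in all 6 libraries of Raji and of REH and 3 in NALM6. H3K4me2 reached all 6 libraries for 2 of the 9 in Raji, 1 in NALM6 and 7 in REH. Of the 22 genes mutated in Diamond-Blackfan anemia, an inherited failure of red cell production, 22 had H3K4me3 in all 6 Raji libraries, 10 in NALM6 and 19 in REH, and 7, 3 and 11 had H3K4me2.

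Among the genes that had a peak, the H3K4me2 peaks of RP genes were low and long. Each gene's peak was ranked by its maximum among all protein-coding genes with a peak in the same library, 100 being the highest. Where several peaks lay within 1 kb of a gene's annotated starts, the highest maximum was taken and their lengths were summed. The median RP gene stood at the 24.6th percentile for H3K4me2 (range over 16 libraries 20.1 to 38.7) and at the 57.3rd for H3K4me3 (45.8 to 66.9). By length the median RP gene stood at the 70.0th percentile for H3K4me2 (36.6 to 75.3) and the 70.7th for H3K4me3 (53.1 to 83.6). The median called lengths were 4003 bp for H3K4me2 and 2990 bp for H3K4me3. By mean signal per base the H3K4me2 median was lower still, at 13.1 (10.3 to 27.1).

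The 78 nuclear genes for mitochondrial ribosomal proteins, which build the separate ribosome of the mitochondrion, differed from this. Their H3K4me2 maximum stood at the 38.6th percentile (34.2 to 49.7), and that of the RP genes was below it in 18 of 18 libraries. Their H3K4me2 peaks were shorter, at the 38.2nd percentile and 2763 bp, and so were their H3K4me3 peaks, at the 36.3rd percentile and 2165 bp. The H3K4me3 length percentile of the RP genes was above that of the mitochondrial genes in 18 of 18 libraries and the H3K4me2 one in 17 of 18. Translation factors with TOP messages stood at 52.5 for the H3K4me2 maximum and 67.6 for its length. Ribosome assembly genes, which act in the nucleolus, stood at 29.1 and 55.3. Libraries of a line share cells and the genes are not independent, so these counts are descriptions with no test.

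**Figure D2:**
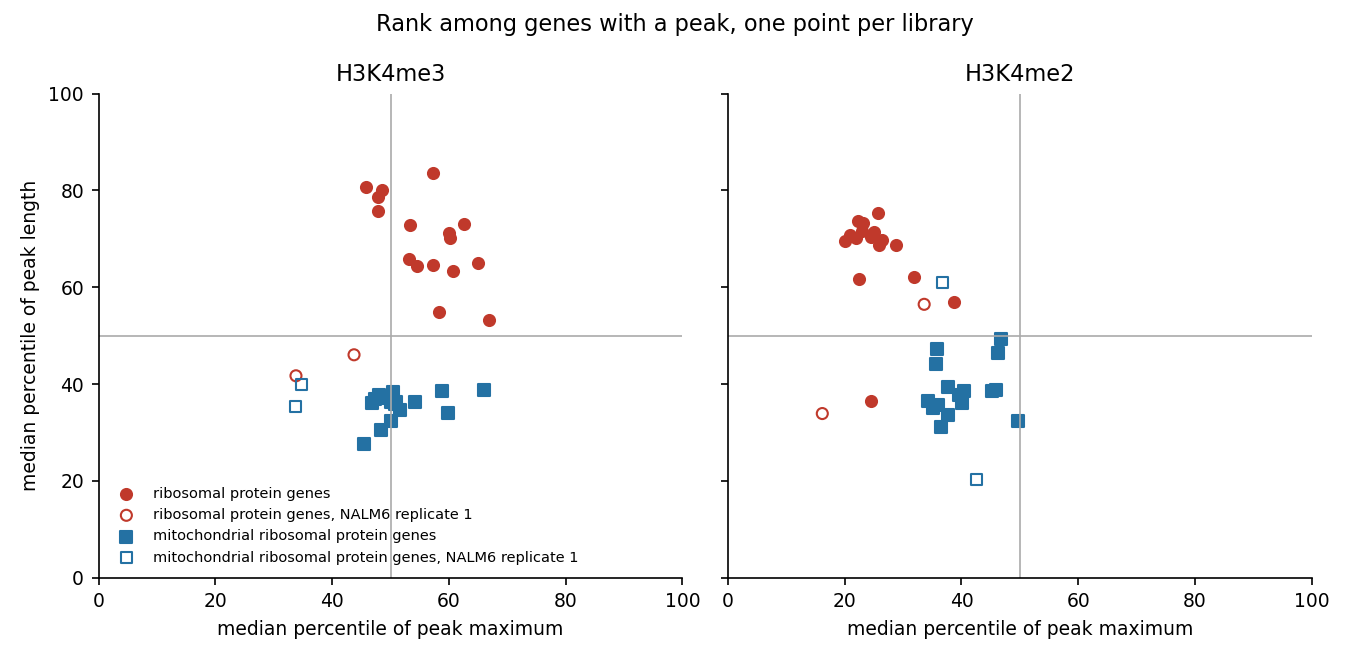
Median percentile of the peak maximum (horizontal axis) against that of the peak length (vertical axis) among genes with a peak, 1 point per library, for RP genes (circles) and mitochondrial ribosomal protein genes (squares), with NALM6 replicate 1 open. For H3K4me2 the RP genes lie at low height and, in all but 2 libraries, above the 50th percentile of length.

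The single RP genes spread over the whole range. Over the medians of the 16 libraries, 63 of 78 RP genes ranked higher by H3K4me3 than by H3K4me2, with a median difference of 22.8 percentile points, and 15 ranked higher by H3K4me2. For H3K4me2, 27 genes lay under the 10th percentile and 8 above the 80th. For H3K4me3, 10 lay under the 20th and 15 above the 80th. The highest by H3K4me3 were RPL8 (99.9), RPL7 (99.1), RPS28 (97.8), RPLP2 (97.4), RPS21 (93.6) and RPL6 (92.9). The lowest outside the Y chromosome were RPL34 (8.02), RPS4X (9.68), RPS20 (14.1) and RPL23 (15.4).

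RPL8, a core protein of the large subunit near the peptidyl transferase centre, had H3K4me3 maxima of 17050, 6584 and 7023 RPKM in the untreated Raji libraries and 7503, 8440 and 12352 RPKM in REH. RPS4X had 708, 522 and 475 RPKM in Raji, and in REH a peak of 574 RPKM in 1 library and none in the other two. RPL34 had 1019, 467 and 514 RPKM in Raji and 549 RPKM in 1 REH library. The values of RPL8 did not overlap those of the other 2 genes in either line, and a missing peak says only that none was called at that depth. By total signal, among RP genes with a peak in all 3 untreated libraries of the line, the highest were RPL7, RPL8 and RPS2 in Raji and RPL7, RPL8 and RPS29 in REH, and the lowest in REH were RPL11, RPS3A and RPL17. Among RP genes with a peak in at least 6 untreated libraries, the longest summed H3K4me3 lengths were those of RPL10 (7018 bp), RPS2 (6471 bp) and RPS18 (6089 bp). The shortest were those of RPL17 (1670 bp), RPL5 (1702 bp) and RPS24 (1704 bp). A summed length can join separate peaks of a gene.

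A few genes had strong H3K4me2 and weak H3K4me3 by rank. RPL23A, a protein at the exit tunnel, stood at 96.0 for H3K4me2 and 40.8 for H3K4me3, and RPL10 at 76.1 and 34.9. In RPL23A the median H3K4me2 maximum lay 6251 bp past the start, so the peak that reached the start had its summit elsewhere. The opposite order was seen at RPL6 (14.1 for H3K4me2 and 92.9 for H3K4me3), RPL22 (13.0 and 86.8), RPL13 (10.9 and 83.4) and RPS21 (22.2 and 93.6).

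The best-known RP genes were spread over these ranks. RPS6, the substrate of S6 kinase, stood at 58.5 for H3K4me3 and 13.1 for H3K4me2, and RPS19, the gene most often mutated in Diamond-Blackfan anemia, at 58.6 and 18.2. RPL5 stood at 66.8 and 8.79 and its partner RPL11 at 29.9 and 6.72. RPSA, also known as the laminin receptor, stood at 29.9 and 22.9. RPL3 and RPL4, core proteins of the large subunit, stood at 25.1 and 65.6 for H3K4me3 and at 21.8 and 4.97 for H3K4me2. RPS27A, which is made as a fusion with ubiquitin, stood at 83.5 and 26.3, and RPL13A, which is often used as a reference gene, at 30.8 and 0.728. RPL39 and RPL41, the smallest proteins of the large subunit, stood at 22.8 and 42.9 for H3K4me3 and at 17.8 and 73.3 for H3K4me2. Of the stalk genes RPLP1 stood at 85.0 and 28.1 and RPLP0 at 51.5 and 68.5. The median H3K4me2 maximum lay 6180.5 bp past the start at RPLP0 and 1462.5 bp past it at RPL41, so their summits were not at the start.

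By position in the genome, the 13 RP genes with a divergent protein-coding partner had a median H3K4me3 percentile of 75.5 and an H3K4me2 percentile of 32.4, against 47.6 and 14.1 for the other 65 with a peak. The 28 genes with a small nucleolar RNA gene inside had a median H3K4me3 percentile of 37.9 and a peak length of 3265 bp, against 58.6 and 2790 bp for the 50 others. The 12 genes on chromosome 19 stood at 62.6 for H3K4me3 and 36.7 for H3K4me2. The 3 stalk genes stood at 85.0 and 68.5, the H3K4me2 value being that of RPLP0, whose maximum lay 6180.5 bp past the start. Genes with the pyrimidine run at the RefSeq start stood at 51.5 for H3K4me3 and those without it at 60.5. In the latter group the RefSeq start lay furthest from the canonical start at RPS29 (12330 bp), RPL6 (1837 bp), RPS27A (-785 bp), RPL15 (-587 bp) and RPL10 (-312 bp). At these genes the run was not read at the canonical start. In each of these groups the single genes ranged widely, for H3K4me3 from 14.1 to 97.4 in the genes with a small nucleolar RNA, and no test was made.

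Around the start, the H3K4me2 peaks of RP genes were shifted upstream at their summit and reached further past the start. The median distance of the H3K4me2 maximum from the canonical start was -99.5 bp (range over 16 libraries -187.5 to -66.5), against -42.5 bp (-64.5 to -27.5) for all genes with a peak. The RP genes lay further upstream in 18 of 18 libraries. For H3K4me3 the maximum lay at 86.8 bp (-26.5 to 115.5) against 105 bp (21.5 to 136.5) for all genes, further upstream in 16 of 18. The H3K4me2 maximum lay past the start in 3.85% to 39.7% of RP genes and in 28.4% to 44.6% of all genes, depending on the library. The mitochondrial ribosomal protein genes shared part of this shift. The median H3K4me2 maximum of the RP genes lay further upstream than theirs in 16 of 18 libraries. The RP share past the start was below theirs in only 5 of 18. For H3K4me3 the RP maximum lay further upstream than theirs in 5 of 18.

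The far edge of the peaks lay further past the start. Gene length was not used, and at short genes such as RPL41 the peak ran beyond the end of the gene. The H3K4me2 peaks of RP genes ended a median of 2629 bp past the start (467 to 3813), against 1715 bp (904 to 2284) for all genes and 1400 bp for the mitochondrial genes. For H3K4me3 the ends lay at 1803 bp (1026 to 3279) against 1407 bp (984 to 1717). The RP genes reached further than all genes in 14 of 18 libraries for H3K4me2 and in 16 of 18 for H3K4me3.

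H3K27me3 was rare at RP genes. On average 5.63% of them had a peak over the 18 libraries, and 0.745% without Raji untreated replicate 2, which marked 70 of the 79 genes and 57.0% of all genes. Of the 79 genes, 9 had no H3K27me3 peak in any library, 66 had one in Raji untreated replicate 2 only, and 4 had at least 2. The share at RP genes was below that of all genes in every other library. RPL7 had H3K27me3 in 4 libraries, with total signals that ranked at 1.88 to 10.7 percent in the 3 libraries other than Raji untreated replicate 2, and RPL15 and RPS7 had a second peak in NALM6 bryostatin replicate 3.

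RPL38, a small protein on the surface of the large subunit, was the exception. It starts at chr17:74203678 and had an H3K27me3 peak in 2 of 3 untreated and 3 of 3 treated REH libraries, and in Raji only in untreated replicate 2. The REH peaks were 35940 and 36550 bp long untreated and 11070, 12060 and 33330 bp treated, at the 73.8th to 96.6th percentile of length. They lay upstream of the gene: where the canonical start was within reach, the peak ended between 728 bp before the start and 252 bp past it, with its maximum at -9382.5 to -7942.5 bp. RPL38 had an H3K4me3 peak in 2 of 3 untreated REH libraries, with maxima of 1026 and 1454 RPKM, and 769, 607 and 761 RPKM in Raji.

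To ask where the balance of both H3K4 marks lay, the total signal of each region was compared between the H3K4me3 and H3K4me2 libraries of an untreated line. Total signals were summed over merged peaks, taken as log2 and centred on the median region of each library, so a difference is relative to the median region, and only regions called in all 6 libraries were tested with limma and Benjamini-Hochberg adjustment over all regions. The antibodies differ, and the uncentred medians of all genes lay 0.89 to 1.00 higher for H3K4me3. In REH 58 RP genes could be tested, and 37 were higher in H3K4me3 and 6 lower at an adjusted p under 0.05, where 44.2% of all gene starts tested were higher and 32.9% lower. The median of the 58 was 0.45 and that of all genes 0.13. In Raji 25 of 33 were higher and 3 lower, against 37.6% and 32.1% of all gene starts, with medians of 0.82 and 0.10. The untreated Raji libraries held 20.1 M to 47.9 M reads for H3K4me3 and 6.70 M to 13.9 M for H3K4me2. Depth and mark cannot be told apart in that line. In NALM6 only 16 could be tested, of which 3 were higher and 1 lower, against 13.7% and 17.3%.

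The number tested in Raji rests on its shallow H3K4me2 library. Without Raji H3K4me2 untreated replicate 2, 65 RP genes could be tested and 50 were higher and 3 lower, against 37.8% and 27.9% of all gene starts. Without replicate 1 of both marks in NALM6, 30 of 41 were higher and 5 lower, against 40.5% and 36.0%. A region can hold the start of another gene: among RP genes alone in their region 19 of 32 were higher and 2 lower in REH and 13 of 15 and 1 in Raji. Counting only genes with an H3K4me2 peak in all libraries leaves out the RP genes with the weakest H3K4me2. The mitochondrial ribosomal protein genes had 30 of 49 higher and 5 lower in REH, with a median of 0.43, and 29 of 54 and 3 in Raji, with a median of 0.49. TOP translation factors had 9 of 15 and 0 in REH and 10 of 13 and 0 in Raji, and ribosome assembly genes 14 of 21 and 2 in REH and 12 of 15 and 1 in Raji.

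RPS21, a small-subunit protein, had H3K4me3 maxima of 8828, 4337 and 4745 RPKM in Raji and H3K4me2 maxima of 710, 702 and 433 RPKM. In REH these were 3484, 3506 and 4167 RPKM for H3K4me3 and 616, 580 and 662 RPKM for H3K4me2. The marks did not overlap in either line, and the centred difference was 1.95 ± 0.17 (SE, limma adjusted p = 2.00e-06) in Raji and 1.12 ± 0.10 in REH. In Raji the other large differences were RPL7A 2.12 ± 0.41 (adjusted p = 0.000715), RPS25 1.91, RPL13 1.71, RPL30 1.70 and RPL6 1.67. The centred H3K4me2 values of RPL7A were -2.26, -0.44 and -0.16, so 1 library set much of its size.

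In REH the difference was 1.80 ± 0.10 at RPL6 (limma adjusted p = 9.22e-09), whose region also holds the start of PTPN11, 1.65 at RPS15, a small-subunit protein of the decoding site, 1.31 at RPS25, 1.26 at RPS28 and 1.22 at RPS29. RPS15 had centred H3K4me2 values of -1.52, -1.46 and -1.39 and H3K4me3 values of 0.07, 0.14 and 0.36. The groups lay far apart for all 5. By role, of the small-subunit proteins at the mRNA entry and decoding site 3 of 5 were higher and 1 lower in REH, and at the mRNA exit 3 of 3 tested were higher. Of the exit tunnel genes 4 of 8 were higher and 1 lower in REH, and 1 of 4 and 1 in Raji. Of the stalk genes 1 of 3 was higher in REH and 2 of 2 in Raji. Of the 15 tested genes that are mutated in Diamond-Blackfan anemia, 11 were higher and 0 lower in REH, and 5 of 7 and 0 in Raji. Over all RP genes tested, 37 of 58 were higher and 6 lower in REH, and 25 of 33 and 3 in Raji. Of all gene starts, 44.2% were higher and 32.9% lower in REH, and 37.6% and 32.1% in Raji. The lists are small and were not tested against the RP genes as a whole.

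The opposite balance was found at fewer RP genes. RPL28 had -0.87 and RPL23A -0.62 in REH and -0.37 and -0.50 in Raji. RPS18 (-0.61) and RPS3 (-0.38) were lower in REH. The region of RPL23A also holds the starts of TLCD1 and NEK8, that of RPS18 those of VPS52 and B3GALT4 and that of RPL28 that of TMEM238.

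**Figure D3:**
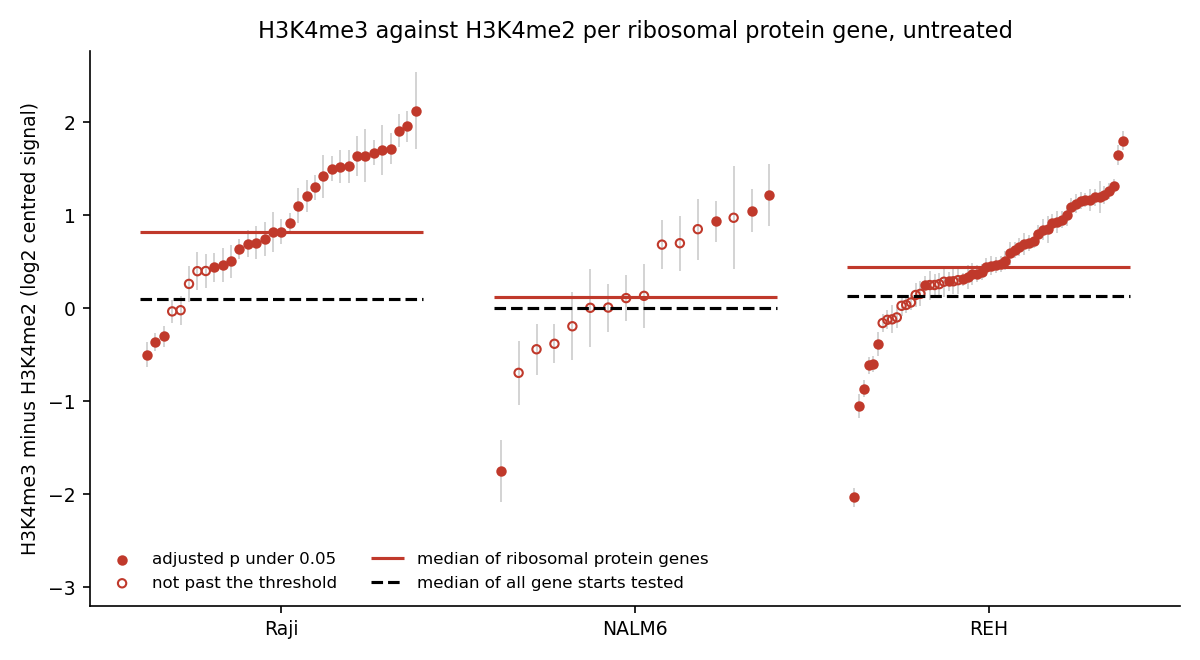
Difference of the log2 centred total signal, H3K4me3 minus H3K4me2 (vertical axis), for each RP gene tested in untreated Raji, NALM6 and REH, sorted within a line, with SE bars and filled circles at an adjusted p under 0.05. Solid lines are the medians of the RP genes and dashed lines those of all gene starts, at 0.82 and 0.10 in Raji and 0.45 and 0.13 in REH.

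Between Raji and REH untreated, 28.8% of the RP genes tested were called for H3K4me3, a smaller share than of all gene starts, and 46.7% for H3K4me2, against 44.7% of all gene starts. For H3K4me3, 66 RP genes could be tested between Raji and REH with limma, and 10 were higher in Raji and 9 lower, where 24.3% of all gene starts tested were higher and 25.7% lower. The median difference was 0.03. This split rests on the measure, since with the maximum signal 2 were higher and 8 lower and with the mean signal 2 and 10. For H3K4me2, 30 could be tested, and 2 were higher and 12 lower in Raji, against 22.2% and 22.5% of all gene starts, with a median of -0.29. The untreated H3K4me2 libraries held 8.31 M, 6.70 M and 13.9 M reads in Raji and 18.8 M, 15.4 M and 13.7 M in REH. The median RP peak lengths were 1480, 1960 and 4110 bp in Raji and 3660, 3920 and 3220 bp in REH. Depth and called length thus differed along with line, and their part was not tested. Among RP genes alone in their region the H3K4me3 counts were 6 and 4 of 40 and the H3K4me2 counts 1 and 4 of 10.

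RPL11, which with RPL5 and the 5S RNA binds MDM2 when ribosome assembly fails, was higher in Raji. Its centred H3K4me3 values were -0.42, -0.14 and -0.13 in Raji and -1.02, -1.15 and -1.34 in REH, a difference of 0.94 ± 0.13 (SE, limma adjusted p = 0.000229). RPL30 had 0.59, 0.57 and 0.62 in Raji and -0.09, -0.09 and -0.36 in REH (0.77 ± 0.10, adjusted p = 0.000121). RPL22, a protein of the exit tunnel that is mutated in lymphoid leukemia, had 0.56, 0.60 and 0.61 against -0.16, 0.09 and 0.18 (0.56 ± 0.10, adjusted p = 0.00108). None of these groups overlapped. RPL14 had 0.40, -0.53 and -0.38 against -1.07, -1.01 and -0.97 (0.85 ± 0.21), with 1 Raji library apart from the other two.

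RPLP0, the stalk protein that anchors the others, was lower in Raji, with 0.76, 0.79 and 0.65 against 1.24, 1.20 and 1.27 in REH (-0.50 ± 0.07, limma adjusted p = 0.000362), in a region that also holds the start of GCN1. RPL10, a late-joining large-subunit protein mutated in lymphoid leukemia, had -0.49, -0.88 and -0.79 against -0.15, -0.04 and -0.07 (-0.63 ± 0.12). The smaller H3K4me3 differences were 0.46 at RPS3 and RPS21, 0.35 at RPL27A, 0.31 at RPL7 and 0.23 at RPL12. They were -0.46 at RPL41, -0.42 at RPS19, -0.38 at RPL23A, -0.36 at RPL13, -0.33 at RPL10A, -0.29 at RPL35 and -0.26 at RPS18.

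For H3K4me2 the largest difference was at RPL13, a large-subunit protein, with -1.19, -1.03 and -0.59 in Raji and 0.48, 0.61 and 0.56 in REH (-1.49 ± 0.16, limma adjusted p = 6.63e-06). RPS18 followed with -1.14, RPL7A with -1.02, RPS23 with -0.82, RPL21 with -0.77, RPL36 with -0.71 and RPLP2 with -0.70. One Raji library of RPL7A stood at -2.24 and the others at -0.42 and -0.14. RPS23 turned to 0.21 with the mean signal per base. RPL6 (0.41) was among those higher in Raji. Of the 29 RP genes tested in both marks 5 were called in both: RPL10, RPL13, RPL23A and RPS18 were lower in Raji for both marks, and RPL12 was lower for H3K4me2 and higher for H3K4me3. The H3K4me2 region of RPL10 does not hold its canonical start.

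**Figure D4:**
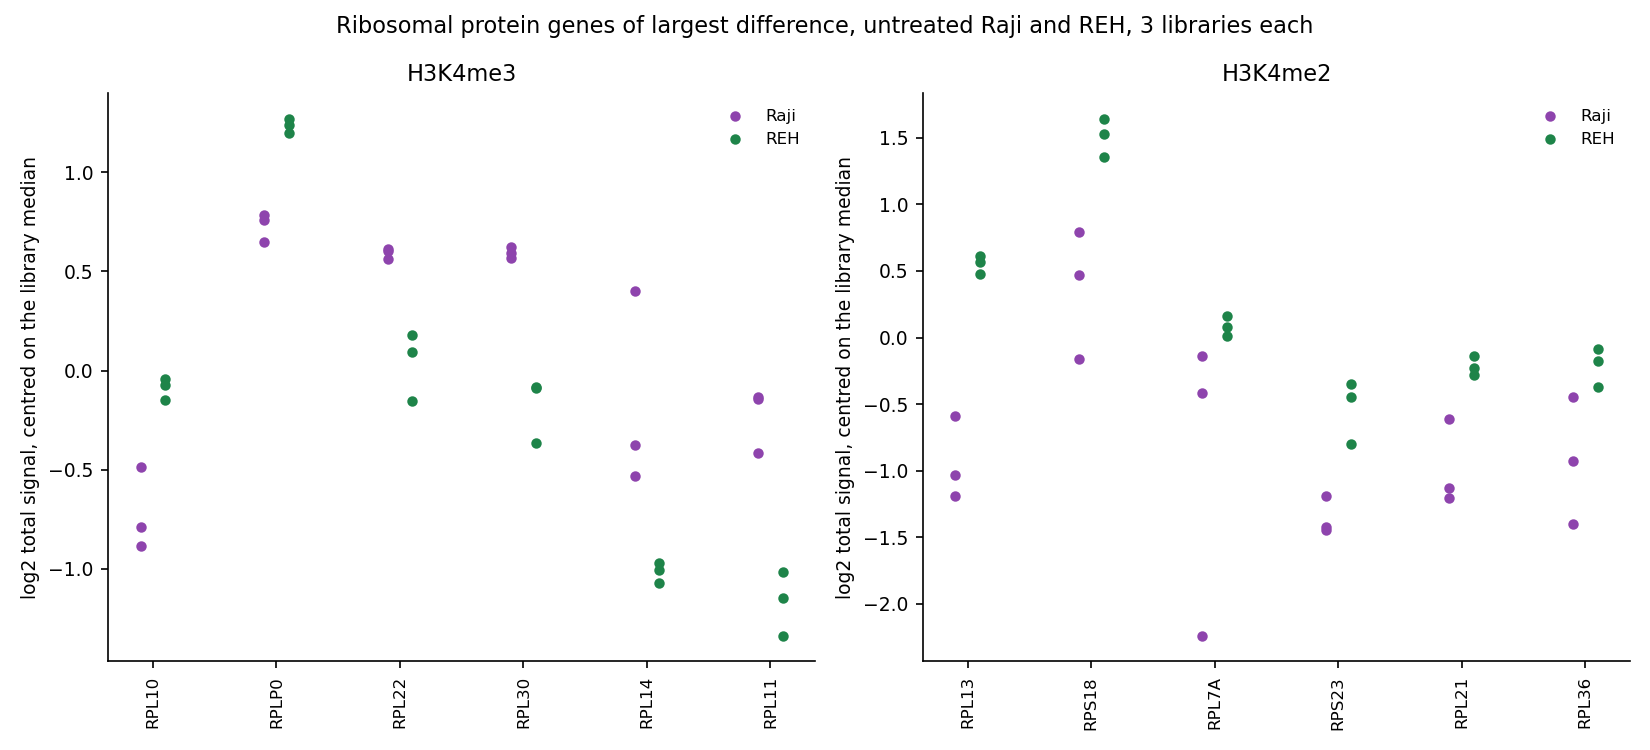
Log2 total signal centred on the library median (vertical axis) of the 6 RP genes of largest difference between untreated Raji and REH for each of H3K4me3 and H3K4me2, 3 libraries per line, sorted by the difference. All 6 H3K4me2 genes lie lower in Raji, and of the H3K4me3 genes RPL10 and RPLP0 lie lower and the others higher.

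NALM6 gave few calls. Against REH, 1 of 16 RP genes was higher in NALM6 and 0 lower for H3K4me2, where 4.65% and 4.46% of all gene starts were called, and 3 of 53 were higher and 0 lower for H3K4me3, against 2.92% and 4.01%. They were RPL35 for H3K4me2 (0.85 ± 0.14, limma adjusted p = 0.00855) and RPL14 (1.26 ± 0.19, adjusted p = 0.0123), RPL23A (1.04) and RPL27A (0.54) for H3K4me3. RPL23A was -0.37 without NALM6 untreated replicate 2. RPL35 shares its region with ARPC5L and RPL23A with RAB34. Raji against NALM6 gave 1 of 16 higher and 1 lower (RPL35, -0.99 ± 0.23, limma adjusted p = 0.0192) for H3K4me2, against 7.94% and 9.53%, and RPL30 (0.94) and RPS21 (0.53) higher of 55 for H3K4me3, against 8.41% and 10.3%. Without centring, RPL35, RPL14, RPL23A and RPL27A changed direction against REH, and RPL35 against Raji, and the median of all genes moved by 1.17 to 1.48. These counts depend on NALM6 replicate 1. Without it 6 of 40 were higher and 3 lower against REH for H3K4me2, where 1211 and 1142 of 8085 gene starts were, and 8 and 5 of 66 for H3K4me3, against 21.8% and 21.9%. Raji against NALM6 then gave 2 higher and 10 lower of 27 for H3K4me2, against 15.1% and 15.9%, and 14 and 14 of 77 for H3K4me3, against 21.6% and 22.4%.

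Bryostatin left no RP gene past the threshold in any line or H3K4 mark. For H3K4me3 in Raji, 0 of 76 tested genes passed the adjusted p of limma, where 0.121% of all gene starts passed. Of the 76, 18 (23.7%) had an unadjusted p under 0.05, against 5.65% of all regions tested, and the smallest adjusted p was 0.395. The median difference was 0.16, 62 of 76 values were above 0, and in 21 (27.6%) the treated libraries all lay above the untreated ones, against 12.2% of all gene starts whose groups did not overlap in either direction. The called length was longer in treated libraries at 66 of the 76 genes, with a median of 3658 bp untreated and 4067 bp treated. The matching share of all gene starts was not computed. Over all genes with a peak, the median length per library was 2070, 2830 and 2720 bp untreated. In the treated libraries it was 2600, 3030 and 2550 bp. With the maximum signal the median difference was 0.03 and with the mean signal 0.06, and 2 and 6 genes had an unadjusted p under 0.05. Without bryostatin replicate 1 the median difference was 0.04.

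The RP genes of largest difference in Raji H3K4me3 were RPL17, an exit tunnel protein, and RPL35A. RPL17 had centred values of -1.13, -0.74 and -0.71 untreated and -0.04, -0.41 and -0.50 treated (0.54, limma adjusted p = 0.639). RPL35A had -1.55, -1.51 and -1.53 untreated and -0.87, -0.98 and -1.27 treated (0.49, adjusted p = 0.663). Neither pair of groups overlapped. When replicates of the same number were paired, 1 of the 76 RP genes passed.

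For H3K4me2 in Raji the median was 0.14, with 27 of 33 values above 0, against a median of -0.013 for all gene starts. Of the 33, 0 passed limma, where 0% of all gene starts passed, and 6 (18.2%) had an unadjusted p under 0.05, against 6.73% of all regions. RPS19 had 0.67 (adjusted p = 0.600) and RPS23 0.53 (adjusted p = 0.719). Here the 3 treated libraries held 15.6 M to 18.8 M reads and the 3 untreated ones 6.70 M to 13.9 M, and depth and treatment cannot be told apart. The median was -0.01 with the maximum signal and -0.07 with the mean signal.

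In REH 0 of 51 passed for H3K4me2 and 0 of 66 for H3K4me3, where 0.456% and 1.41% of all gene starts passed, with medians of -0.02 and 0.02 and 3 (5.88%) and 1 (1.52%) genes at an unadjusted p under 0.05, against 9.88% and 10.5% of all regions. The largest were RPL18 (0.35) and RPS23 (-0.29) for H3K4me2 (limma adjusted p = 0.462 and 0.480) and RPL23 (0.29) and RPL27 (0.26) for H3K4me3 (adjusted p = 0.491 and 0.254). In NALM6 0 of 13 and 0 of 39 passed, where 0% of all gene starts passed for either mark, and 0 and 0 had an unadjusted p under 0.05, against 1.36% and 0.182% of all regions. RPL19 had 0.48 and RPL15 -0.37 for H3K4me2, and RPS14 -0.58 and RPS18 -0.43 for H3K4me3, with limma adjusted p-values of 0.999 to 1.00. A p that misses the threshold does not show that the marks were alike.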

How the data were processed

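Each of the 54 libraries came with a list of peaks called by the authors. Per the labels and the study's methods, reads were demultiplexed with bcl2fastq, trimmed with Trim Galore and aligned to hg38 with Bowtie2, coverage was normalized to RPKM in bins of 10 bp, and SEACR called peaks in each library; versions are not given in the sources used here. The deposited signal values are the coverage summed over a peak and its maximum. In 48 libraries peak heights lay within 0.0012 of whole reads, which gave the mapped reads; the 6 NALM6 replicate 1 libraries carry another scale. DESeq2 is named in the processing notes and was not used here.

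Gene starts came from GENCODE release 44. Peaks of the 6 libraries of a comparison were merged where they overlapped by at least 1 bp. Regions called in all 6 were tested with limma 3.58.1 in R 4.3.3 (eBayes with trend, regions handled with GenomicRanges 1.54.1), with Benjamini-Hochberg adjustment at 0.05, in 15 comparisons. A gene took the region within 1 kb of a start that had the highest mean signal. Promoter sequences came from RefSeq. Tables were handled with pandas 2.3.3 and numpy 2.4.6 and drawn with matplotlib 3.10.9. The limma step was tested on simulated data.

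The genes, lists and tests were chosen with earlier results of these data known. The genes named are a fixed set of well-known RP genes, at most 6 called genes of largest difference per comparison (the 2 largest where none was called), and those with missing H3K4me3, with H3K27me3, or with the highest, lowest, longest or shortest H3K4me3; the other called genes and those named by rank were chosen after their values were seen. Same-numbered replicates deviated together in 5 of 6 bryostatin comparisons and in H3K4me3 against H3K4me2 in NALM6 (0.34 to 0.36). The exception was H3K4me2 in Raji, with correlations of 0.42, -0.25 and -0.31. This pairing was read from the data, and the main tests of all comparisons did not use it. The replicate number entered as a block only in an alternative fit. Some genes are not reported here.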

Additional observations from a re-analysis of the deposited data

Results flagged for a closer look

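RPL10 differed between lines in its balance of marks. H3K4me3 minus H3K4me2 was 0.50 in Raji (limma adjusted p = 0.0258) and -1.06 in REH (adjusted p = 7.22e-06), with every library of one mark above the other in Raji and below it in REH. In Raji the region tested holds the canonical start of RPL10, and in REH the region of highest mean signal, chrX:154387471-154391700, does not. The difference between the lines was not tested.

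RPL35 had -0.38 in NALM6 (limma adjusted p = 0.194) and 0.39 in REH (adjusted p = 0.000842), again with no overlap of the marks within a line and opposite directions. Its region also holds the start of ARPC5L. The difference between the lines was not tested.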

How the results depend on the processing

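Of 441 values of 36 named genes under alternatives, 346 kept their direction and their side of the threshold, 87 kept the direction and lost the threshold, and 8 changed direction; the cause was not tested. With the mean signal RPS23 became 0.21 (Raji against REH, H3K4me2). Without centring RPL35 became -0.62 (NALM6 against REH, H3K4me2) and 0.19 (Raji against NALM6), and RPL14, RPL23A and RPL27A became -0.091, -0.32 and -0.81 (NALM6 against REH, H3K4me3). RPL35 became 0.11 with the maximum signal (Raji against NALM6), and RPL23A ranged from -0.37 (without NALM6 untreated replicate 2) to 1.24 as single libraries were left out.

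Numbers of RP genes called moved as follows. With the maximum signal: Raji against REH 10 for H3K4me3, NALM6 against REH 0 and 1 for H3K4me2 and H3K4me3, and Raji against NALM6 1 and 1. With the mean signal: Raji against REH 9 and 12, NALM6 against REH 0 for H3K4me3, Raji against NALM6 1 for H3K4me2, and H3K4me3 against H3K4me2 in Raji 16. Without centring: 0 between Raji and REH for H3K4me3, 0 and 0 between NALM6 and REH, 0 and 0 between Raji and NALM6, and 0 for the marks in NALM6. With only the peaks above their library's median maximum, which leaves fewer genes to test: Raji against REH 5 and 10, both NALM6 comparisons 0 for each mark, the marks 5 in Raji, 0 in NALM6 and 9 in REH, and bryostatin on H3K4me2 in REH 1 (RPLP0, 0.69, limma adjusted p = 0.000498). Only genes alone in their region, an alternative added after seeing the data: Raji against REH 5 and 10, NALM6 against REH 0 and 1, Raji against NALM6 1 for H3K4me2, and the marks 14 in Raji and 21 in REH. With the replicate number as a block, bryostatin on H3K4me3 in Raji gave 1, NALM6 against REH 1 and Raji against NALM6 0 for H3K4me3, and no other count moved by over 1.5 times; between lines and between marks in Raji and REH the numbers did not pair the libraries. The share of RP genes with H3K4me2 was 28.2% with the peaks above the median maximum and 26.9% with equal numbers of peaks, and with H3K4me3 58.1% and 52.8%.

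Leaving out 1 library at a time, the counts ranged from 6 to 19 and 17 to 23 for H3K4me2 and H3K4me3 between Raji and REH, 0 to 9 and 0 to 13 between NALM6 and REH, 1 to 12 and 0 to 28 between Raji and NALM6, and 25 to 53, 1 to 11 and 40 to 45 for the marks in Raji, NALM6 and REH (35 in NALM6 without replicate 1 of both marks). All 6 bryostatin comparisons gave 0 to 0. The shares ranged from 72.0% to 76.9% for H3K4me2, 90.3% to 92.9% for H3K4me3 and 0.745% to 5.96% for H3K27me3. A test needs a peak in all 6 libraries, so the weakest or shallowest library limits which RP genes were tested.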

Other observations

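Of the ribosomal proteins with other symbols, FAU, which carries RPS30, was higher in H3K4me3 than in H3K4me2 in untreated Raji and REH, and RACK1 was lower in REH, by the same limma comparison (1 of 2 tested higher in Raji, 1 of 3 higher and 1 lower in REH). No explanation was tested.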
